A study of Mus musculus with 8 samples.

Results

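Adrenergic receptors are the G protein-coupled receptors for noradrenaline and adrenaline, and 8 of their genes were examined in the hippocampus of Wfs1 mutant mice. The genes were chosen by name: Adra1a, Adra1b and Adra1d of the alpha1 class, Adra2a, Adra2b and Adra2c of the alpha2 class, and Adrb1 and Adrb3 of the beta class. They were 8 of 24078 entries in the deposited table, each with 1 exact match of its symbol, and all 8 passed the filter on low counts. Total RNA depleted of ribosomal RNA was sequenced from the hippocampus of 4 mice homozygous for the targeted allele of the Wfs1tm1Koks line (replicates 15, 16, 17 and 18) and 4 wild-type mice of that line (replicates 7, 8, 9 and 10). The hippocampus was dissected whole, each library is labelled as 1 animal, and the labels say nothing of age, sex or litter. Wfs1 encodes wolframin, a membrane protein of the endoplasmic reticulum.

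The hippocampus receives noradrenaline from the axons of locus coeruleus neurons, whose cell bodies lie in the brainstem. Alpha1 receptors couple through Gq to phospholipase C and raise intracellular calcium, alpha2 receptors couple through Gi and Go to lower cyclic AMP and open inward-rectifier potassium channels, and beta receptors couple through Gs to raise cyclic AMP. In the hippocampus noradrenaline is known for its effects on excitability, synaptic plasticity and memory, and beta receptors on pyramidal neurons carry part of them.

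Library totals ran from 3250949 to 6747411 counts. Levels are given as CPM, counts of a gene relative to the TMM-scaled total of its library, as mean ± SD over 4 animals. Wfs1 was lower in every homozygous library, at 14.8 ± 2.61 CPM in homozygous and 52.0 ± 7.49 CPM in wild-type hippocampus (log2 fold change -1.81, SE 0.16, adjusted p 2.62e-05 by the quasi-likelihood test of edgeR, adjusted after Benjamini and Hochberg). The mean CPM of the 8 receptor genes exceeded that of 53.2% (Adra2a) to 83.3% (Adra1b) of the 20478 genes tested. Markers of hippocampal pyramidal neurons were abundant, with Slc17a7, the vesicular glutamate transporter of these neurons, at 555 ± 63.3 CPM in homozygous and 1049 ± 180 CPM in wild-type libraries.

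The receptor subtypes are related in sequence, so whether short reads can tell them apart bears on each value. Between the longest coding transcripts of the 8 genes, coding identity reached at most 69.9% (Adra2a with Adra2c). Among all 28 pairs the longest identical run of bases was 30, shared by Adrb1 and Adrb3, and the next longest was 26, shared by Adra2a and Adra2c. Both are shorter than the reads, which were 50 and 35 bases long. The Adrb1 and Adrb3 stretches are shown with the shared run in capitals, 5′ to 3′ on the coding strand. It encodes part of the sixth transmembrane segment, which is conserved among receptors of this family. The Adrb1 stretch lies at chr19:56723304-56723413 (plus strand) and the Adrb3 stretch at chr8:27227450-27227559 (minus strand) of mm10, both read from GENCODE M21 transcripts.
Adrb1: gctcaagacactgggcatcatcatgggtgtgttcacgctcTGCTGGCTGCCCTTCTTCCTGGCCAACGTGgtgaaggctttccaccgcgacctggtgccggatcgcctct
Adrb3: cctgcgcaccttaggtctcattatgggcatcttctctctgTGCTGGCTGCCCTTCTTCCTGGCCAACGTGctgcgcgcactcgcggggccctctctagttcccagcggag

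Of the 8 genes, Adrb3 rose, Adra1d fell and the other 6 passed in neither direction. At the same threshold, an adjusted p under 0.05 in edgeR, 41.1% of all genes tested were called, 20.7% higher and 20.4% lower. The receptor genes were thus not called more often than genes at large, and nothing particular to the family follows from the count of 2. Their median log2 fold change was -0.04, beside 0.05 for all genes. Adrb3 lay near one end of the distribution, with 97.9% of genes having a smaller log2 fold change, and Adra1d near the other, with 4.26% having a smaller one. There was no overlap between the 4 homozygous and the 4 wild-type animals for 3 genes, Adrb3, Adra1d and Adra1a, nor for 37.6% of all genes tested.

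**Figure D1:**
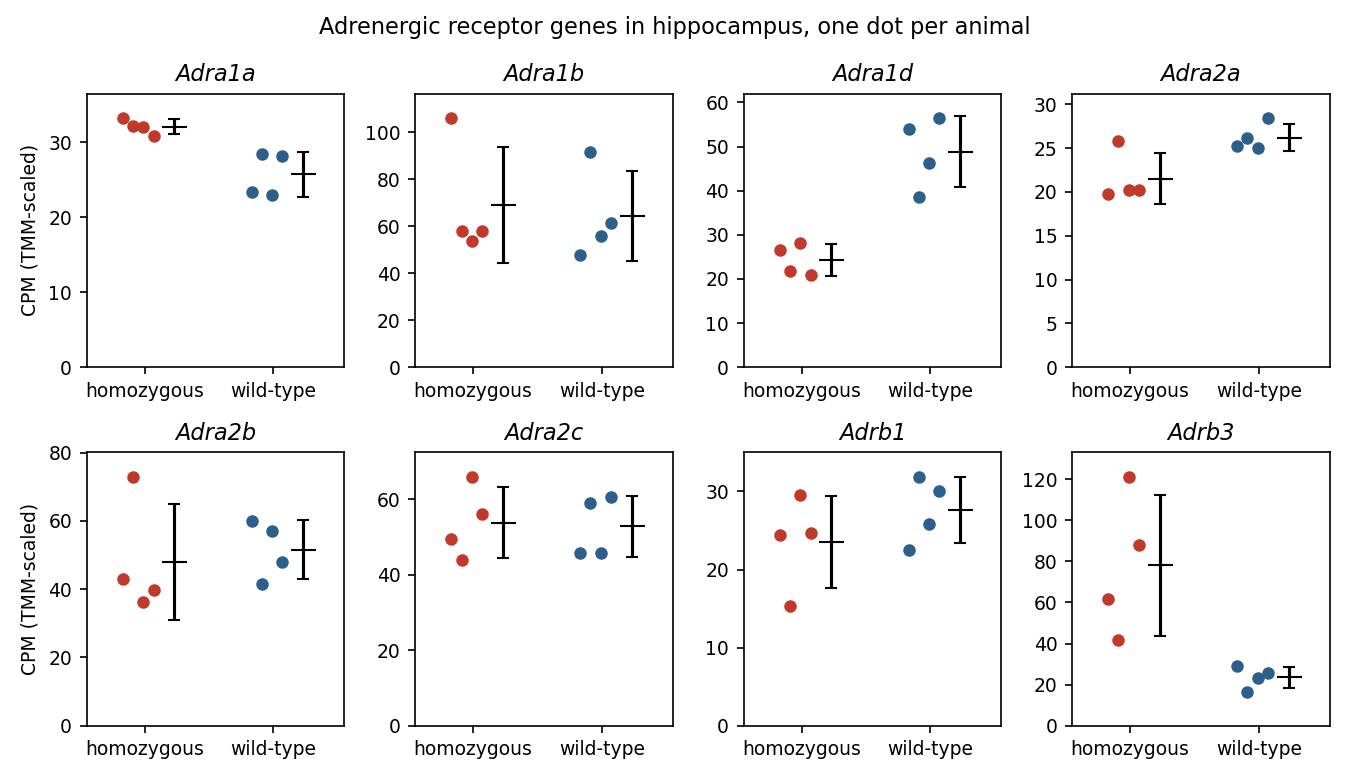
CPM of each adrenergic receptor gene (vertical axes, starting at 0 and scaled per gene) in the 4 homozygous and 4 wild-type animals, 1 dot per animal, with the mean and SD as a bar beside the dots. Adrb3 separates upward (41.8 CPM or more in homozygous, 28.9 CPM or less in wild-type animals) and Adra1d separates downward (28.05 CPM or less in homozygous, 38.7 CPM or more in wild-type animals).

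Among the alpha1 receptors, Adra1d, which is known from arteries and from forebrain neurons, was the gene that fell. It had 26.5, 21.8, 28.05 and 20.8 CPM in homozygous replicates 15, 16, 17 and 18, against 54.0, 38.7, 46.2 and 56.4 CPM in wild-type replicates 7, 8, 9 and 10. Every homozygous value was below every wild-type value. Adra1d averaged 24.3 ± 3.52 CPM in homozygous and 48.8 ± 8.05 CPM in wild-type hippocampus (SD, n = 4 each). This is a log2 fold change of -1.01 (SE 0.15, 95% interval -1.35 to -0.67), with an adjusted p of 0.000691 in edgeR. The gene stayed called in each of 19 alternative settings, with log2 fold changes from -1.11 to -0.64. The value closest to 0 was found after taking out a trend of fold change on counts per exon kilobase (adjusted p 0.0083 in edgeR).

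In mm10 Adra1d spans chr2:131545850-131562283 (minus strand), and the annotated antisense gene Gm14285 shares 147 bases of its first exon. The labels do not say whether the authors' counting used strand, and without strand, reads of the pair in those bases cannot be told apart. The shared bases are shown in capitals, with 20 coding bases on either side, at chr2:131561594-131561780, on the Adra1d strand. They end just before the codons of the motif that closes the third transmembrane segment.
Adra1d: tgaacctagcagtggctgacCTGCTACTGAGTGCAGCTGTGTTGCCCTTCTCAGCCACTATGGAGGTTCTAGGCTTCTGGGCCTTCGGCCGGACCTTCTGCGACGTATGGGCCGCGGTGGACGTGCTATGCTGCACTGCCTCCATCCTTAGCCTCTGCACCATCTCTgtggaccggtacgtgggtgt
The capitals make up 147 of the 1689 coding bases, so most of the transcript is not shared with the antisense gene.

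Adra1b, an alpha1 subtype of cortical, thalamic and liver cells, did not pass. It had 105.8, 57.8, 53.8 and 58.1 CPM in homozygous replicates 15, 16, 17 and 18, against 47.8, 91.5, 56.0 and 61.2 CPM in wild-type replicates 7, 8, 9 and 10. Each genotype held 1 animal well above its other 3, homozygous replicate 15 and wild-type replicate 8, and the groups overlapped. Its log2 fold change was 0.12 (SE 0.25, 95% interval -0.42 to 0.66, adjusted p 0.719 in edgeR), and without homozygous replicate 15 it was -0.17.

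Adra1a, the alpha1 subtype of some interneurons and of resistance vessels, had 33.2, 32.2, 32.1 and 30.8 CPM in homozygous replicates 15, 16, 17 and 18, against 23.4, 28.5, 22.9 and 28.2 CPM in wild-type replicates 7, 8, 9 and 10. All 4 homozygous values were above all 4 wild-type values, by a small margin. The log2 fold change was 0.33 (SE 0.12, 95% interval 0.05 to 0.60) and the adjusted p of 0.0557 in edgeR missed the threshold. With library totals as the only scaling it was called at 0.53 (adjusted p 0.00819 in edgeR), in a setting where the median of all genes also moved, to 0.25, and 32.4% of genes were called higher and 11.8% lower. In limma-voom with quality weights it was called at 0.38 (adjusted p 0.0262), where 45.2% of genes were called, 22.7% higher. At an adjusted p under 0.1 it would be called as well, with 50.7% of genes called and 26.0% higher. In the other direction, it was 0.14 (adjusted p 0.37 in edgeR) after removal of the trend on counts per kilobase.

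None of the alpha2 receptor genes passed the edgeR test, at adjusted p from 0.108 to 0.89 and unadjusted p from 0.0563 to 0.851. Adra2a, the main autoreceptor on noradrenergic terminals and also a postsynaptic receptor, had 19.8, 25.8, 20.2 and 20.3 CPM in homozygous replicates 15, 16, 17 and 18, against 25.3, 26.1, 25.0 and 28.4 CPM in wild-type replicates 7, 8, 9 and 10. Homozygous replicate 16 lay among the wild-type values and the other 3 homozygous values below them. Its log2 fold change was -0.29 (SE 0.13, 95% interval -0.58 to 0.01, adjusted p 0.108 in edgeR). Adra2a was called in 2 settings: without homozygous replicate 16 (-0.39, adjusted p 0.0364 in edgeR, where 37.8% of genes were called, 18.9% lower) and after removal of the trend on counts per kilobase (-0.43, adjusted p 0.0271 in edgeR, where 15.3% were). With library totals as scaling it was -0.087 (adjusted p 0.635 in edgeR).

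Adra2b, an alpha2 subtype known from thalamus and vessels, had 43.1, 72.9, 36.1 and 39.6 CPM in homozygous replicates 15, 16, 17 and 18, against 60.0, 41.4, 57.1 and 48.0 CPM in wild-type replicates 7, 8, 9 and 10. The highest value of either genotype came from homozygous replicate 16, and 2 of the homozygous values lay below all wild-type values. The log2 fold change was -0.11 (SE 0.21, 95% interval -0.58 to 0.35, adjusted p 0.688 in edgeR). Without homozygous replicate 16 it was -0.39 (adjusted p 0.0614 in edgeR). With library totals as scaling it was 0.085, and after removal of the trend on counts per kilobase it was 0.084.

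Adra2c, the alpha2 subtype of striatum and hippocampus, is the receptor gene nearest to the targeted locus. It lies on chromosome 5, positions 35278319 to 35281763 of mm10, 1.68 Mb from Wfs1. It had 49.5, 43.9, 65.9 and 56.1 CPM in homozygous replicates 15, 16, 17 and 18, against 45.9, 59.0, 45.7 and 60.6 CPM in wild-type replicates 7, 8, 9 and 10. The ranges overlapped almost fully, at 53.8 ± 9.49 CPM in homozygous and 52.8 ± 8.11 CPM in wild-type animals (SD, n = 4 each). Its log2 fold change was 0.03 (SE 0.16, adjusted p 0.89 in edgeR), with a 95% interval of -0.31 to 0.37, and its sign turned when homozygous replicate 17 (-0.088), wild-type replicate 7 (-0.03) or wild-type replicate 9 (-0.04) was left out.

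Of the beta receptor genes, Adrb3 rose and Adrb1 passed in neither direction. Adrb3, known from fat cells, where it drives lipolysis and heat production, had 61.8, 41.8, 121.2 and 88.1 CPM in homozygous replicates 15, 16, 17 and 18, against 28.9, 16.6, 23.1 and 25.7 CPM in wild-type replicates 7, 8, 9 and 10. The counts behind these values were 350, 144, 419 and 300 in homozygous and 135, 49, 144 and 122 in wild-type libraries. The groups did not overlap, but the homozygous animals were spread widely. Adrb3 averaged 78.2 ± 34.3 CPM in homozygous and 23.6 ± 5.22 CPM in wild-type hippocampus (SD, n = 4 each), 3.28-fold higher. The log2 fold change was 1.71 (SE 0.29, 95% interval 1.08 to 2.35) with an adjusted p of 0.00112 in edgeR. It stayed called in each of the 19 alternative settings, between 1.42 without homozygous replicate 17 and 1.91 without homozygous replicate 16.

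In mm10 Adrb3 spans chr8:27225776-27250616, also on the minus strand. The antisense gene Gm45470 overlaps 839 bases of the 3376 bases of its annotated exons. None of these bases lie in the coding sequence of the longest Adrb3 transcript, of 1215 coding bases. Counts are given per gene symbol, so the part of the locus that gave the added counts is not resolved, and antisense and sense reads cannot be told apart without strand.

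Adrb1, the beta subtype of forebrain neurons that also drives the heart, had 24.4, 15.4, 29.5 and 24.7 CPM in homozygous replicates 15, 16, 17 and 18, against 22.5, 31.9, 25.8 and 30.1 CPM in wild-type replicates 7, 8, 9 and 10. Homozygous replicate 16 was the lowest of the 8 libraries, and the groups overlapped. Its log2 fold change was -0.22 (SE 0.19, 95% interval -0.64 to 0.20, adjusted p 0.371 in edgeR), and -0.02 with library totals as scaling. For the 6 genes that did not pass, the 95% intervals lay between -0.64 and 0.66 on the log2 scale, and with the exception of Adra1a each interval held 0.

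**Figure D2:**
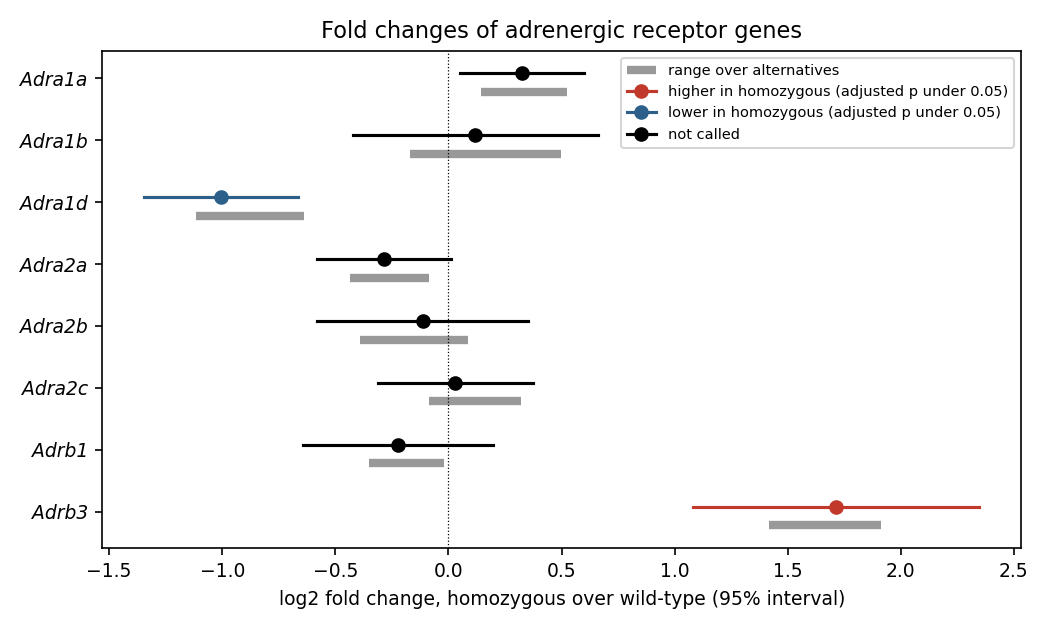
Log2 fold change of each adrenergic receptor gene, homozygous over wild-type (dots), with the 95% interval (thin lines) and the range over 19 alternative settings (grey bars). Only the intervals of Adrb3 (1.08 to 2.35), Adra1d (-1.35 to -0.67) and Adra1a (0.05 to 0.60) leave out 0, and Adra1a did not pass after adjustment.

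Levels of different genes were compared per kilobase of annotated exon. In homozygous hippocampus the order of mean CPM per kilobase was Adrb3 (23.2), Adra1b (20.4), Adra2c (15.6), Adra1d (12.8), Adra2b (11.9), Adrb1 (6.94), Adra2a (4.46) and Adra1a (3.68). In wild-type hippocampus the order of mean CPM per kilobase was Adra1d (25.7), Adra1b (19.0), Adra2c (15.3), Adra2b (12.9), Adrb1 (8.15), Adrb3 (6.98), Adra2a (5.42) and Adra1a (2.95). In both genotypes the only neighbours whose 4 animals did not overlap were Adra2b above Adrb1 and Adra2a above Adra1a. By mean, Adra1d took rank 4 in homozygous and rank 1 in wild-type animals, and Adrb3 rank 1 in homozygous and rank 6 in wild-type animals. In both genotypes the animals of the gene at rank 1 overlapped those of the next gene, Adra1b. The ranks depend on the length used. Per kilobase of the longest coding transcript, a length chosen after seeing the data, Adrb3 had 58.5 CPM in homozygous and 17.6 CPM in wild-type animals and ranked 3 in wild-type, and Adra1a ranked above Adra2a in both genotypes.

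Some of these levels were near those of receptor genes with little known role in hippocampus. The comparison took 753 olfactory, vomeronasal and taste receptor genes that passed the filter on low counts. Their 10th to 90th percentile range was 0.562 to 5.29 CPM per kilobase in homozygous and 0.417 to 3.58 in wild-type libraries. Genes of these families that the filter removed are not in that range. Adra1a lay inside that range in both genotypes, and Adra2a lay inside it in homozygous but above it in wild-type animals. The other 6 receptor genes lay above it in both genotypes. Among the 753 genes 224 were higher and 34 lower in homozygous libraries, where 20.7% of all genes were called higher and 20.4% lower. Their median log2 fold change was 0.49, and 44 had a log2 fold change at least as large as that of Adrb3. The part of these counts in the Adrb3 and Adra1a results was not tested.

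The share of each gene in the summed counts of the 8 genes does not depend on how libraries are scaled. Adrb3 made up 16.98%, 13.4%, 31.3% and 26.0% of them in homozygous replicates 15, 16, 17 and 18, against 9.40%, 4.98%, 7.65% and 7.58% in wild-type replicates 7, 8, 9 and 10. Adra1d made up 7.28%, 6.99%, 7.25% and 6.16% in homozygous replicates 15, 16, 17 and 18, against 17.6%, 11.6%, 15.3% and 16.7% in wild-type replicates 7, 8, 9 and 10. Neither gene's shares overlapped between the genotypes. By class, alpha1 genes held 35.8% ± 6.95 in homozygous and 43.2% ± 3.08 in wild-type animals (SD, n = 4 each). Alpha2 genes held 35.6% ± 6.91 in homozygous and 40.8% ± 2.18 in wild-type animals. Beta genes held 28.6% ± 9.28 in homozygous and 15.98% ± 0.99 in wild-type animals. The shares of the alpha1 and alpha2 classes overlapped between genotypes and those of the beta class did not. With counts divided by exon length the alpha1 shares no longer overlapped, at 30.9% to 47.3% in homozygous and 47.99% to 51.8% in wild-type animals. The summed level of the 8 genes was 312 to 387 CPM in homozygous and 302 to 339 CPM in wild-type libraries, with overlapping ranges. These shares are a description, since a gain of 1 member lowers the shares of all others.

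**Figure D3:**
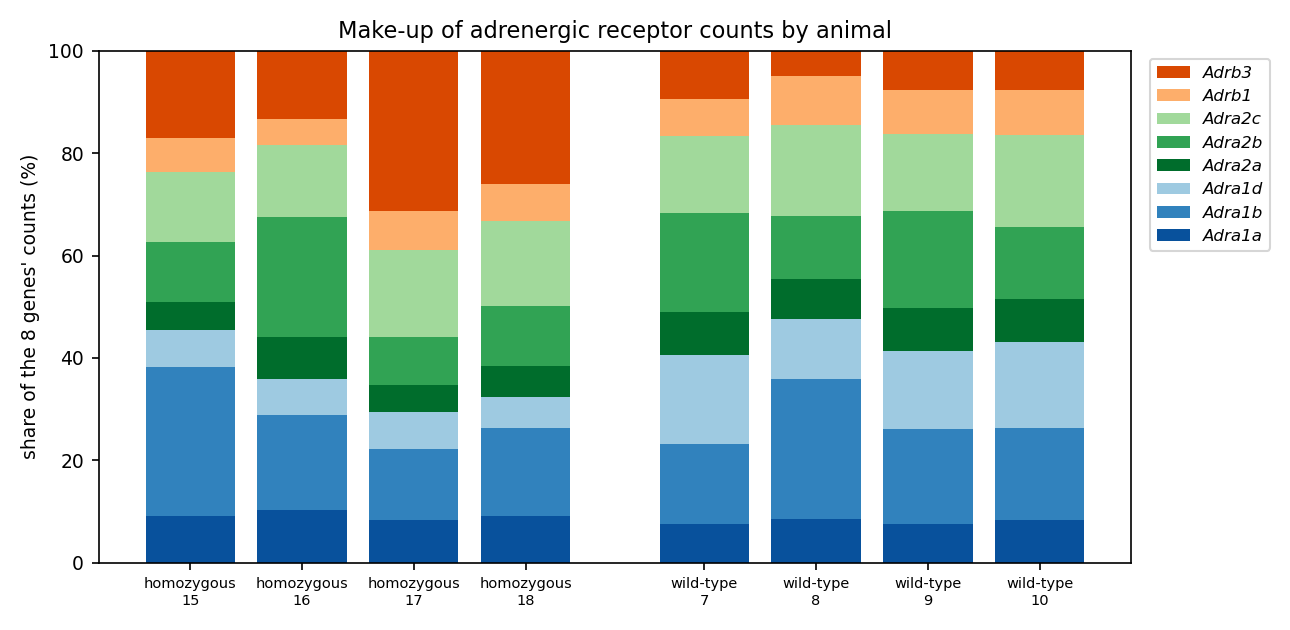
Percentage of the summed counts of the 8 adrenergic receptor genes (vertical axis) that each gene took in each animal, homozygous animals on the left and wild-type animals on the right. The top segment, Adrb3, is 13.4% to 31.3% in homozygous and 4.98% to 9.40% in wild-type animals.

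The genes whose pattern over the 8 libraries was most like that of the called receptors were found by the root mean square difference in centred log2 CPM, among 18275 genes of at least 5 CPM. For Adrb3 they were Olfr301 (0.16), 1700017D01Rik (0.22) and Olfr985 (0.23), whose log2 fold changes were 1.74, 1.77 and 1.89. Olfr301 and Olfr985 are olfactory receptor genes, a family with near-identical copies among which reads may be shared. For Adra1d they were Phb (0.11), which encodes the mitochondrial prohibitin, Olig1 (0.11), a transcription factor of oligodendrocytes, and Ube2s (0.13), a ubiquitin-conjugating enzyme. Their log2 fold changes were -1.07, -0.89 and -0.85.

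Genes around the receptors were read from 6 lists with 72 measured genes, of which 14 rose, 28 fell and 30 passed in neither direction in edgeR. The share called was 58.3%, beside 41.1% of all genes, and the median log2 fold change was -0.25. The lists were chosen with earlier results of these data known, and their genes were not matched to all genes in abundance. The difference in share therefore cannot be read as a result about these pathways. Many of the falls depended on the processing. With a trend of fold change on abundance removed, the genes that fell were 2 of 9 G protein subunit genes, 0 of 10 phospholipase C and protein kinase C genes, 3 of 21 cyclic AMP genes and 2 of 13 kinase, arrestin and regulator genes. In that setting 3392 of all 20478 genes were called lower. The median log2 fold changes of these lists were then 0.07, 0.15, -0.01 and -0.21. After removal of the trend on counts per kilobase, the genes that fell in these lists were 1, 1, 4 and 1, where 15.3% of all genes fell.

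Of 11 measured genes for the supply and removal of noradrenaline 5 rose, 1 fell and 5 passed in neither direction, where 20.7% of all genes were called higher and 20.4% lower. Th, which makes the catecholamine precursor L-DOPA, averaged 23.9 ± 14.0 CPM in homozygous and 4.89 ± 0.90 CPM in wild-type hippocampus (SD, n = 4 each; log2 fold change 2.26, SE 0.36, adjusted p 0.000856 in edgeR). Slc6a2, the noradrenaline reuptake transporter, averaged 74.2 ± 29.1 CPM in homozygous and 32.2 ± 1.40 CPM in wild-type hippocampus (log2 fold change 1.20, SE 0.22). Slc22a3, a low-affinity transporter that also clears noradrenaline, rose with a log2 fold change of 1.23 (SE 0.19). Per kilobase of exon, wild-type Th (2.07 CPM) and Slc22a3 (2.92 CPM) lay inside the wild-type range of the olfactory, vomeronasal and taste receptor genes. Wild-type Slc6a2 (5.12) lay above that range, as did the homozygous means of Th (10.1), Slc22a3 (6.86) and Slc6a2 (11.8) above the homozygous range. Those 753 receptor genes had a median log2 fold change of 0.49, and their part in these rises was not tested. Dbh, which converts dopamine to noradrenaline and marks noradrenergic cells, averaged 9.01 ± 2.35 CPM in homozygous and 8.68 ± 2.01 CPM in wild-type hippocampus (adjusted p 0.781 in edgeR). Among 5 markers of noradrenergic neurons, of which Slc6a2 and Dbh also stand in the list above, Slc6a2 and Phox2a rose, Hand2 fell, and none was under 1 CPM. Their summed level was 124 to 219 CPM in homozygous and 91.6 to 134 CPM in wild-type libraries, and its part in the rise of Th and Slc6a2 was not tested. Dbh, Phox2a, Hand2, the G protein gene Gnai2 and, in the phospholipase C arm, Plcb2, Plcb3 and Itpr2 fall outside the rule for named genes. They were chosen after their values were seen.

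Of 9 G protein alpha subunit genes 4 fell (Gna11, Gnas, Gnai1 and Gnai2), none rose and 5 passed in neither direction. Among all genes tested 20.4% were called lower and 20.7% higher. Gna11, a Gq-class subunit that serves alpha1 receptors, averaged 73.3 ± 8.57 CPM in homozygous and 127 ± 9.38 CPM in wild-type hippocampus (log2 fold change -0.79, SE 0.12), and stayed called at -0.34 after removal of the trend on counts per kilobase. Gnai1, a Gi subunit that serves alpha2 receptors, averaged 94.8 ± 14.3 CPM in homozygous and 177 ± 20.02 CPM in wild-type hippocampus (log2 fold change -0.90, SE 0.14), and its call was lost after removal of the trend on counts per kilobase (-0.28). Gnas, the Gs subunit that serves beta receptors, had a log2 fold change of -0.61 (SE 0.14), which turned to 0.073 with the abundance trend removed and to 0.024 after removal of the trend on counts per kilobase.

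In the phospholipase C and protein kinase C arm 3 of 10 genes rose, 3 fell and the other 4 did neither, with a median log2 fold change of -0.15. The shares over all genes were 20.7% higher and 20.4% lower. The genes that fell were Plcb1, a phospholipase C that Gq activates, and the protein kinase C genes Prkcb and Prkce, at -0.74, -0.71 and -0.59 on the log2 scale. Those that rose were Plcb2, Plcb3 and Itpr2, at 0.68, 0.33 and 0.85, and with either trend removed 1 gene of the list was called higher. The value of Prkcb turned to 0.028 with the abundance trend removed and to 0.082 after removal of the trend on counts per kilobase, and those of Plcb1 and Prkce no longer passed with the abundance trend removed. In the cyclic AMP arm 9 of 21 genes fell, 2 rose and 10 passed in neither direction, beside the same shares over all genes. Prkaca, a catalytic subunit of protein kinase A, averaged 77.4 ± 10.2 CPM in homozygous and 163.5 ± 5.203 CPM in wild-type hippocampus (SD, n = 4 each; log2 fold change -1.08, SE 0.12, adjusted p 0.000139 in edgeR). Adcy2, an adenylyl cyclase, and Prkar1b, a regulatory subunit of protein kinase A, fell with log2 fold changes of -0.91 and -0.85, and the call of Prkar1b was lost with either trend removed. Prkaca and Adcy2 stayed called with either trend removed, both at -0.43 after removal of the trend on counts per kilobase.

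Of 13 genes for receptor kinases, arrestins and regulators 7 fell, 1 rose and the other 5 did neither, with a median log2 fold change of -0.40. Over all genes 20.4% were called lower and 20.7% higher. Arrb1, which encodes an arrestin that uncouples receptors, fell by 0.72 on the log2 scale, Adrbk1, a kinase that phosphorylates active receptors, fell by 0.58, and Rgs14, a regulator of G protein signalling, fell by 0.64. The call of Adrbk1 was lost with either trend removed. That of Arrb1 was lost with the abundance trend removed and kept after removal of the trend on counts per kilobase (-0.40). That of Rgs14 was kept with the abundance trend removed (-0.49) and lost after removal of the trend on counts per kilobase.

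The list of GIRK channels, which G protein beta-gamma subunits open, and HCN channels, which hyperpolarisation opens, held the largest changes among the named pathway genes. Of its 8 genes 3 rose, 4 fell and 1 passed in neither direction, where 20.7% of all genes were called higher and 20.4% lower. Kcnj5, a GIRK channel subunit, had 298, 171, 108 and 260 CPM in homozygous replicates 15, 16, 17 and 18, against 22.9, 29.8, 24.9 and 24.6 CPM in wild-type replicates 7, 8, 9 and 10. Its log2 fold change was 3.04 (SE 0.28, adjusted p 3.56e-05 in edgeR). Kcnj6, another GIRK subunit, had 276, 400, 198 and 286 CPM in homozygous replicates 15, 16, 17 and 18, against 1933, 1434, 1170 and 1525 CPM in wild-type replicates 7, 8, 9 and 10. Its log2 fold change was -2.39 (SE 0.24, adjusted p 5.51e-05 in edgeR), and -1.57 after removal of the trend on counts per kilobase. The 2 genes thus moved in opposite directions with no overlap between the genotypes. Hcn2, a hyperpolarisation-activated channel whose opening cyclic AMP facilitates, had a log2 fold change of -0.92 (SE 0.14).

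**Figure D4:**
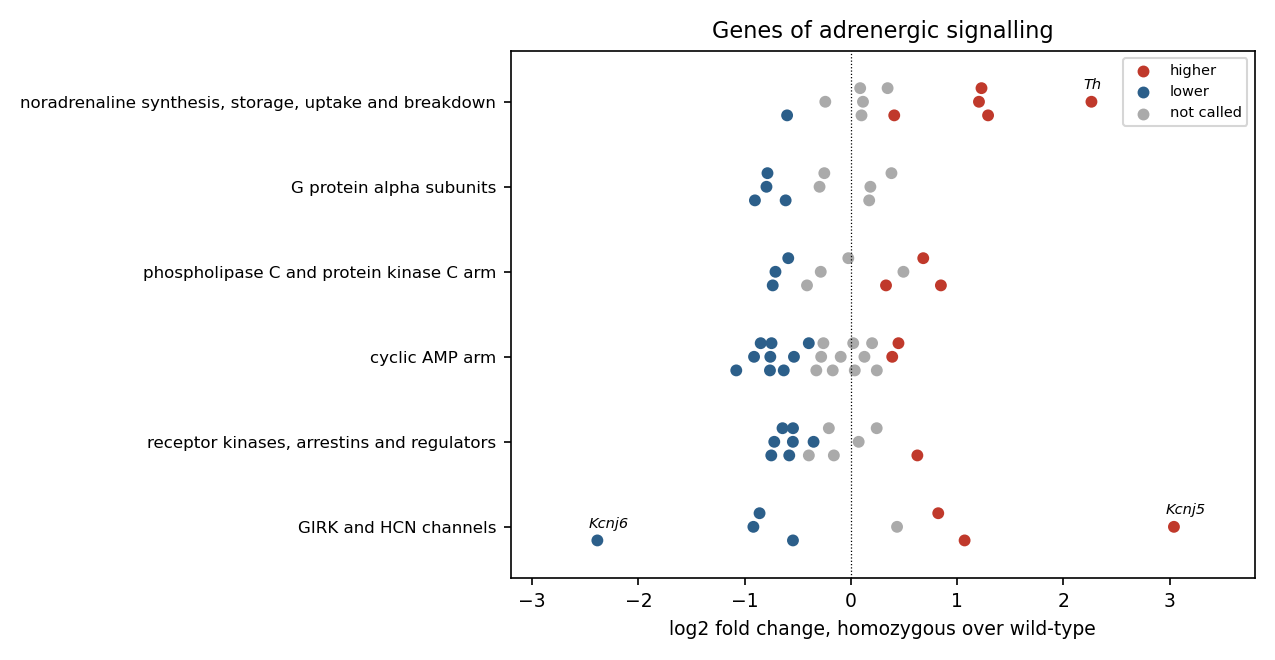
Log2 fold change, homozygous over wild-type (horizontal axis), of every measured gene in the 6 lists around the receptors (rows), 1 dot per gene, with genes past the threshold coloured by direction. The channel list spans the widest range, from Kcnj6 at -2.39 to Kcnj5 at 3.04, and the noradrenaline list lies furthest to the right, with a median of 0.34.

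Markers of cell types that carry these receptors moved with genotype too. Of 5 genes each, 4 pyramidal neuron, 4 interneuron and 4 oligodendrocyte markers fell and none rose, where 20.4% of all genes were called lower. With the abundance trend removed 2, 2 and 1 of these markers fell, where 3392 of all 20478 genes were called lower. After removal of the trend on counts per kilobase 1, 1 and 0 did, where 15.3% of all genes were called lower. The median log2 fold change of the pyramidal neuron markers was -0.92 as reported and -0.16 with the abundance trend removed. Summed pyramidal neuron markers ran from 1325 to 1533 CPM in homozygous and from 2186 to 2951 CPM in wild-type libraries. Summed interneuron markers ran from 231.7 to 263.1 CPM in homozygous and from 346.9 to 369.8 CPM in wild-type libraries, and oligodendrocyte markers from 842 to 1050 CPM in homozygous and from 1236 to 1990 CPM in wild-type libraries. Summed vascular smooth muscle and pericyte markers ran from 149 to 165 CPM in homozygous and from 208 to 266 CPM in wild-type libraries, with 2 markers lower and 1 higher. Of the vascular markers, Pdgfrb averaged 76.9 ± 5.28 CPM in homozygous and 153 ± 25.7 CPM in wild-type libraries. Myh11 rose, with a log2 fold change of 0.48, and the median of that list was 0.25. Adra1d moved in the direction of the summed levels of these 4 lists, but not of the vascular list's median. The summed levels of astrocyte (2 lower), microglia (1 lower), endothelium (1 higher, 1 lower), choroid plexus (1 higher), thalamus (none) and striatum (1 higher) markers overlapped between the genotypes, and no marker of any list was under 1 CPM. The part of cell makeup in the Adra1d and Adrb3 results was not tested, and in bulk tissue fewer cells of a type and less RNA per cell cannot be told apart.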

How the data were processed

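Hippocampal total RNA of 8 mice, 4 homozygous and 4 wild-type, was depleted of ribosomal RNA and read on the SOLiD 4 platform (paired ends, 50 and 35 bases), per the labels' protocols. The authors deposited raw counts per gene symbol. The build is mm10, per the submitters' processing notes, and no source used here gives the aligner, counter, annotation or strand setting. The 8 receptor genes and all gene lists were chosen with earlier results of these data known.

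Counts were tested with edgeR 4.0.16 (R 4.3.3) by the quasi-likelihood test, two-sided, with TMM scaling and Benjamini-Hochberg adjustment over the 20478 genes left after filterByExpr removed 3600; the threshold was 0.05. SE is the log2 fold change divided by the root of F. Every pair of libraries differed by more than sampling noise (chi-square per degree of freedom at least 5.082). Symbols were matched to GENCODE M21 for 94.2% of entries, which gave lengths, GC content, positions and sequences. Named genes were the 8 receptors and Wfs1, up to 3 genes per pathway list by smallest p, the most abundant markers, and 3 genes most like each called receptor. Alternatives were median-of-ratios and total scaling, other filters, DESeq2 1.42.0, limma 3.58.1 voom, robust dispersion, removal of trends on abundance, counts per kilobase or GC, a threshold of 0.1, and leaving out each library. P-values measure the spread between animals as labelled.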

Additional observations from a re-analysis of the deposited data

Results flagged for a closer look

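In 3 of 54 groups of 4 animals checked, 1 animal lay far from the other 3, where chance gives about 1 in 20. Adra1b was at 105.8 CPM in homozygous replicate 15, with a gap to the nearest animal of 0.917 of the group's range. Adra2a was at 25.85 CPM in homozygous replicate 16, with a gap of 0.922 of the range. Plcb1 was at 151.0 CPM in homozygous replicate 16, with a gap of 0.878 of the range.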

How the results depend on the processing

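Adra1d, Adrb3 and Adrb1 kept their direction and their side of the threshold in all 19 alternatives. For Adra1d and Adrb3, called at 0.05, the threshold of 0.1 could not give another outcome. With library totals as scaling 6645 genes were higher and 2412 lower, against 4241 and 4168 as reported (73.4% against 50.4% of calls higher), and the median over all genes was 0.25 against 0.05 (log2). The receptor genes called higher were 2 with library totals, limma-voom and an adjusted p under 0.1, by Adra1a at 0.53, 0.38 and 0.33. Adra1a was 0.14 after removal of the trend on counts per kilobase, and Adra2a was -0.087 with library totals. Those called lower were 2 after removal of the trend on counts per kilobase, by Adra2a at -0.43, and 1 to 2 when each library was left out, where Adra2a ran from -0.39 to -0.24. Adra2b reversed to 0.085 with library totals and to 0.084 after removal of the trend on counts per kilobase. Leaving out each library, Adra1b ran from -0.17 to 0.32 and Adra2c from -0.088 to 0.11. Gnas reversed to 0.073 and 0.024, and Prkcb to 0.028 and 0.082, after removal of the abundance trend and of the trend on counts per kilobase. Per kilobase of exon, the wild-type shares were 49.4% for alpha1 and 34.9% for alpha2 genes, and the alpha1 shares no longer overlapped between genotypes. The causes were not tested. No paired analysis was possible because the genotypes share no replicate numbers. Counts as low as 49 for Adrb3 limit the precision.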
